A study of Macaca mulatta with 30 samples.

Results

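The 9 genes described here encode the main receptors through which nerves and gut hormones call for exocrine secretion: the muscarinic acetylcholine receptors CHRM1 and CHRM3, the adrenergic receptors ADRB1, ADRA1A and ADRA1B, the vasoactive intestinal peptide receptors VIPR1 and VIPR2, the secretin receptor SCTR and the cholecystokinin A receptor CCKAR. They were chosen by name, and all 9 were found among the 21292 gene rows of the deposited table. Each was followed across 3 salivary glands (parotid, submandibular, sublingual), pancreas and liver of 6 rhesus macaques (Macaca mulatta), with 1 RNA library per tissue and animal, 30 libraries in all. Animals 1 to 4 were female and animals 5 and 6 male. The tissue was flash frozen and total RNA came from cut sections. No treatment, genotype or age is given in the labels, and every tissue group holds the same 6 animals. The study was planned as a comparison of tissues within animals, chiefly salivary gland against pancreas and pancreas against liver.

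Acetylcholine and noradrenaline are released by the parasympathetic and sympathetic nerves of the salivary glands. Muscarinic and alpha-1 adrenergic receptors couple to Gq, phospholipase C and a rise in cell calcium, which drives the fluid of saliva, whereas beta-1 adrenergic, VIP and secretin receptors couple to Gs and cyclic AMP, which in salivary acini favours release of stored protein. In the pancreas secretin acts on duct cells to release bicarbonate, and cholecystokinin and acetylcholine stimulate enzyme secretion. In the liver, alpha-1 receptors on hepatocytes promote release of glucose.

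Levels are given in TPM (relative transcript abundance corrected for transcript length, with the same total in every library), so the level of one receptor can be set beside that of another. The sequencing depth behind the TPM values is unknown. The defining markers of each tissue were searched first. In 5 of 6 pancreas libraries the median of 9 pancreatic acinar markers was 13731 to 33622 TPM, but in the pancreas library of animal 4 it was 359 TPM. The median of 9 salivary acinar markers was 2047 to 6045 TPM in 5 submandibular libraries and 68.7 TPM in that of animal 4. In these libraries of animal 4 the median of the adipocyte markers was 331 TPM in pancreas and 660 TPM in submandibular gland, against at most 88.8 TPM and 9.71 TPM in the other 5. Skeletal muscle markers summed to 93088 TPM in the parotid library of animal 6, 7307 TPM in the parotid library of animal 1, 7338 TPM in the sublingual library of animal 1 and 18043 TPM in the sublingual library of animal 5. Salivary acinar markers summed to 4402 TPM in the sublingual library of animal 4, where the other 5 held 36385 to 348569 TPM. Receptor results that rest on these libraries are given with and without them below. In whole tissue, fewer cells of a type and less RNA per cell cannot be told apart.

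The leading receptor differed between tissues. ADRB1 was the most abundant of the 9 in all 6 parotid libraries and in 4 of 6 submandibular libraries, VIPR1 in 5 of 6 sublingual and all 6 liver libraries, and SCTR in 5 of 6 pancreas libraries. As a share of the summed TPM of the 9 receptors, ADRB1 made up 54.6% ± 6.39 (SD, n = 6) in parotid and 26.4% ± 9.13 in submandibular gland. VIPR1 made up 49.3% ± 15.4 in sublingual gland and SCTR 82.0% ± 27.6 in pancreas, where the share was 25.7% in animal 4. The remaining exceptions were CHRM1, highest in 1 sublingual library, VIPR1 and VIPR2, each highest in 1 submandibular library, and VIPR2, highest in 1 pancreas library. The submandibular library led by VIPR1 and the pancreas library led by VIPR2 were those of animal 4. In that submandibular library ADRB1 made up 9.89% and VIPR1 39.7%, and the mean shares include it. The submandibular gland had the most even mixture, with mean shares of 21.9% for VIPR1, 19.1% for VIPR2, 12.7% for CHRM1 and 10.3% for CHRM3 beside that of ADRB1. In liver, VIPR1, ADRA1A and ADRA1B made up 49.6%, 21.1% and 19.1% of the sum. The sum itself was 9.74 to 23.7 TPM in parotid, 15.7 to 22.5 TPM in submandibular gland, 5.36 to 41.1 TPM in sublingual gland, 24.9 to 204 TPM in pancreas and 26.4 to 44.0 TPM in liver.

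**Figure D1:**
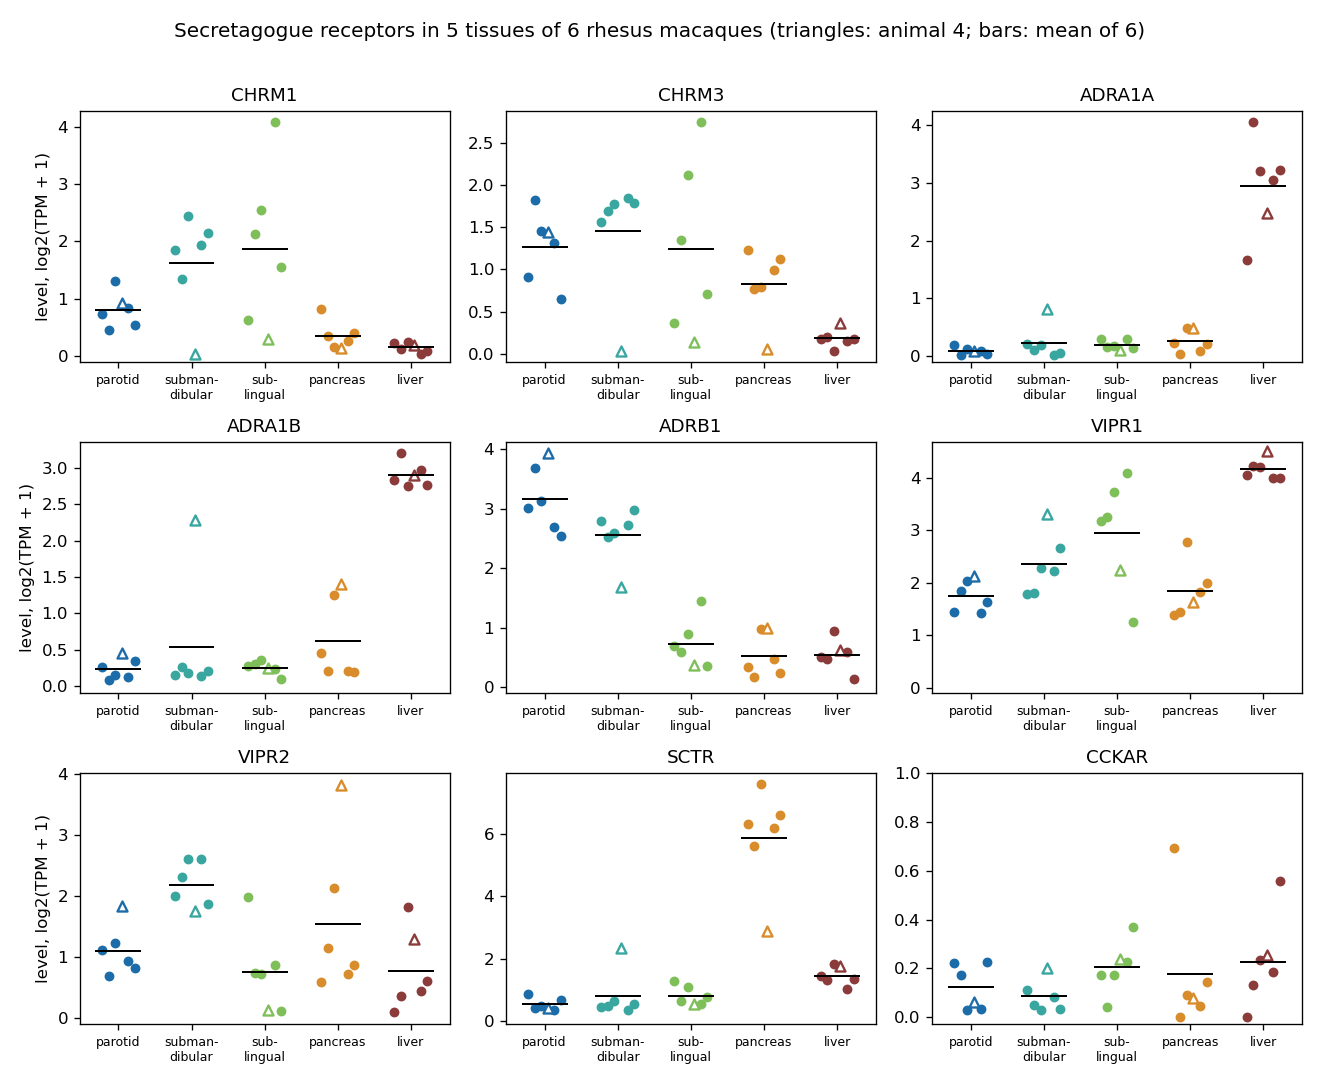
Level of each of the 9 receptors in every library, as log2(TPM + 1) on the vertical axis, by tissue, with 6 animals a tissue and a separate scale for each receptor; points are libraries, open triangles animal 4 and bars the mean of 6. ADRB1 is high in parotid and submandibular gland, SCTR in pancreas, and ADRA1A, ADRA1B and VIPR1 in liver.

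**Figure D2:**
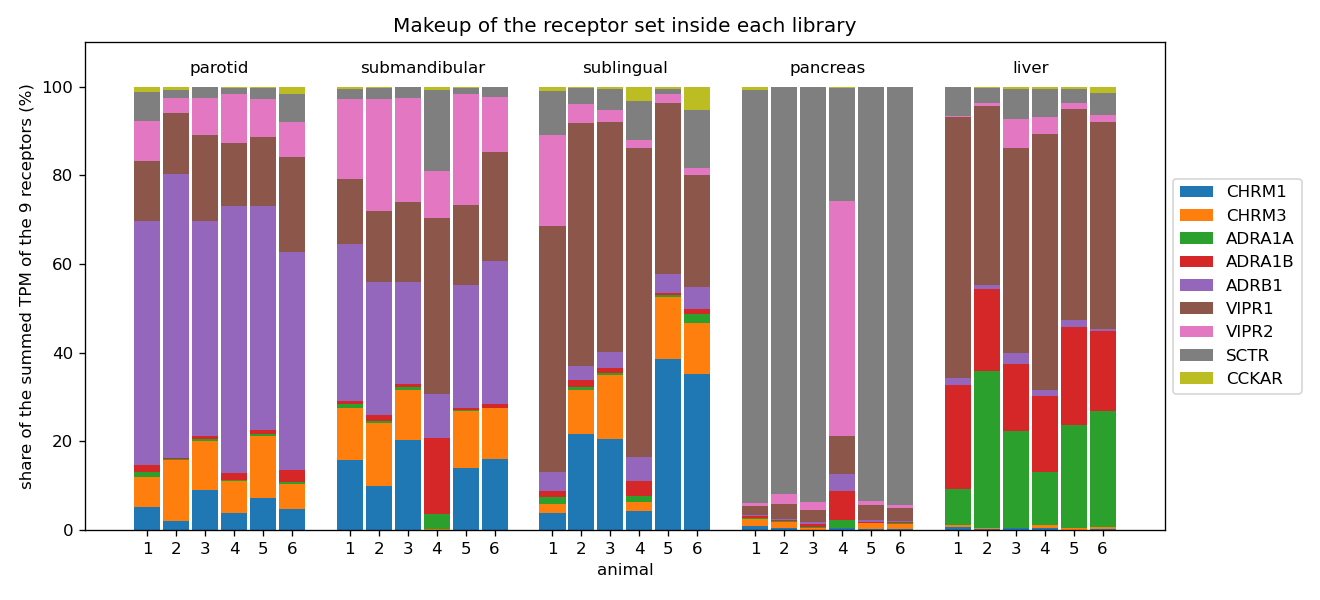
Share (percent) of the summed TPM of the 9 receptors held by each receptor in each of the 30 libraries, as stacked bars by tissue and animal. ADRB1 takes the largest share in all 6 parotid libraries, and SCTR does so in 5 of 6 pancreas libraries, the exception being animal 4.

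Differences between tissues were tested with limma on log2(TPM + 1) across the 13550 genes that reached 1 TPM in at least 6 libraries, with animal as a block and Benjamini-Hochberg adjustment over all of these genes. An adjusted p below 0.05 counts as a difference. A fold change on this scale understates the change of a gene at low level. Of the 9 receptors 8 passed the filter and CCKAR did not. ADRA1A passed through its 6 liver libraries alone, so its difference from liver follows in part from the filter. ADRA1B reached 1 TPM in 9 libraries, 6 of them liver, and would not have passed without liver, so the same holds for it. Both genes are in the counts against liver below. ADRB1 reached 1 TPM in 13 libraries, 6 of parotid, 6 of submandibular gland and 1 of sublingual gland. CHRM1 did so in 10, namely 1 parotid, 5 submandibular and 4 sublingual libraries. The ADRB1 differences from sublingual gland, pancreas and liver thus also follow in part from the filter. So do the CHRM1 differences from pancreas and liver. The 10 tissue pairs share libraries and are not independent of each other. The spread behind each p-value is pooled over all 5 tissues, so a receptor has the same SE in every pair. It does not measure the spread of the compared tissues alone.

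Against pancreas, ADRB1 was higher and SCTR lower in parotid, 2 of 8 receptors tested, where 15.8% of all genes tested differed. In submandibular gland 3 of 8 differed from pancreas, ADRB1 and CHRM1 higher and SCTR lower, beside 9.71% of all genes. In sublingual gland 3 of 8 differed, CHRM1 and VIPR1 higher and SCTR lower, beside 13.9%. Between pancreas and liver 4 of 8 differed, SCTR higher in pancreas and ADRA1A, ADRA1B and VIPR1 lower, beside 30.4%. The median log2 fold change of the 8 receptors in these pairs was -0.13, 0.57, 0.07 and 0.10 in the same order, against -0.48, -0.33, 0.23 and -0.36 over all genes.

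The glands differed from liver more widely, as did genes in general. Parotid differed from liver in 5 of 8 receptors, where 58.0% of all genes differed, submandibular gland in 7 of 8 with 50.7%, and sublingual gland in 5 of 8 with 31.5%. Between parotid and submandibular gland limma called 0 of 8 receptors, also after rescaling, and 0.347% of all genes. At an unadjusted p below 0.05 3 of the 8 differed there, ADRB1 higher and CHRM1 and VIPR2 lower in parotid. Parotid differed from sublingual gland in 3 of 8, with 41.5% of all genes, and submandibular from sublingual gland in 2 of 8, with 27.9%. The receptor medians were -0.29, 0.31 and -0.32 against liver and -0.28, -0.06 and 0.13 within the glands, in the order given, against -0.84, -0.70, -0.10, -0.13, -0.70 and -0.56 over all genes. Because TPM sum to a fixed total, these general medians move when a few abundant transcripts fill a library. After scaling each library by a trimmed mean of its ratios to a reference, the general medians lay between -0.04 and 0.04. Values after this scaling are given beside a receptor where they change a call.

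**Figure D3:**
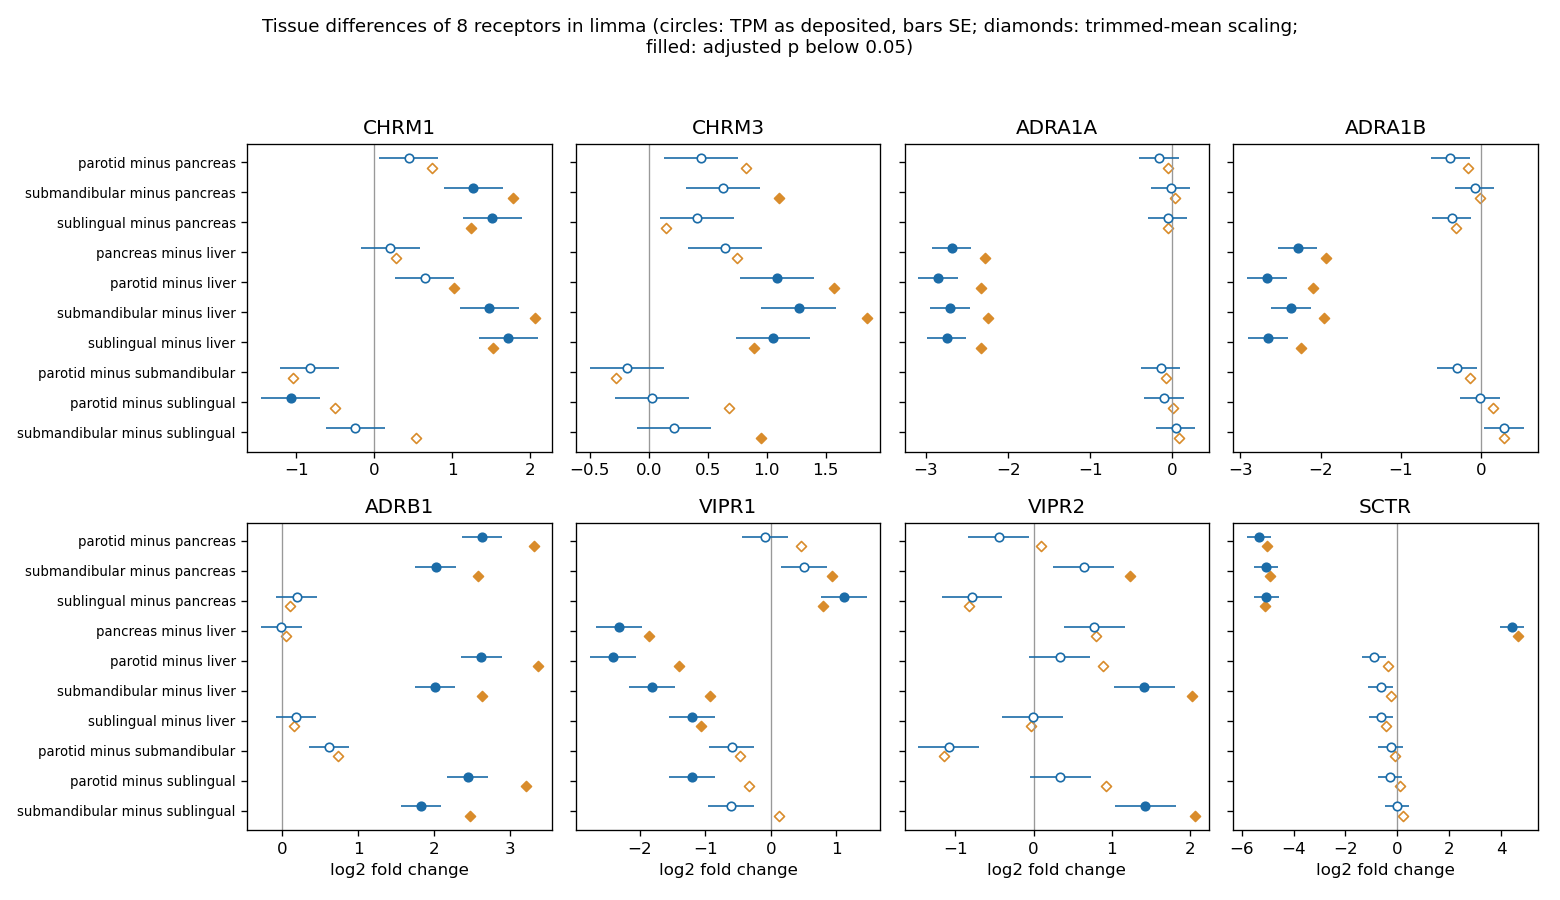
Log2 fold change on log2(TPM + 1) of the 8 tested receptors in each of the 10 tissue pairs by limma; circles are TPM as deposited with bars for the standard error, diamonds are values after trimmed-mean scaling, and filled symbols have an adjusted p below 0.05. ADRB1 lies right of 0 in parotid and submandibular gland against sublingual gland, pancreas and liver, and SCTR left of 0 in each gland against pancreas.

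ADRB1, the beta-1 adrenergic receptor, separated the parotid and submandibular glands from the sublingual gland and from both abdominal organs. Its level in parotid was 4.79 TPM at the lowest, 7.42 TPM at the median and 14.2 TPM at the highest. In submandibular gland it was 2.22, 5.32 and 6.92 TPM. In sublingual gland it was 0.280, 0.561 and 1.73 TPM, in pancreas 0.121, 0.331 and 0.989 TPM, and in liver 0.102, 0.461 and 0.914 TPM. Every parotid and submandibular library was thus above every library of the other 3 tissues. The lowest submandibular value was that of animal 4, the library low in salivary acinar markers, and the other 5 lay between 4.74 and 6.92 TPM.

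The log2 fold change of ADRB1 in parotid was 2.63 (SE 0.27) against pancreas, with an adjusted p of 1.59e-07 by limma, 2.62 against liver (adjusted p 6.45e-09) and 2.44 against sublingual gland (adjusted p 4.09e-07). In submandibular gland it was 2.02 against pancreas (adjusted p 6.23e-06, limma), 2.01 against liver (adjusted p 7.85e-07) and 1.83 against sublingual gland (adjusted p 5.24e-05). All 6 animals had the same direction in each of these 6 pairs. ADRB1 passed the filter through its parotid and submandibular libraries, so these p-values follow in part from the filter. Without the pancreas and submandibular libraries of animal 4 the submandibular values were 2.28, 2.21 and 2.03. Without the 4 gland libraries rich in muscle markers (parotid of animals 1 and 6, sublingual of animals 1 and 5) the parotid values were 2.80, 2.79 and 2.81. Rescaling made the gaps larger, for example 3.32 in parotid and 2.58 in submandibular gland against pancreas. Parotid and submandibular gland themselves differed by 0.61 with an adjusted p of 1 (limma), higher in parotid in 4 of 6 animals, and their ranges overlap.

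The muscarinic receptors CHRM1 and CHRM3, which carry the cholinergic signal for salivary fluid, were low in most libraries and varied most in the sublingual gland. CHRM1 ranged from 0.233 TPM over a median of 2.65 TPM to 15.9 TPM in sublingual gland, and from 0.0274 over 2.74 to 4.41 TPM in submandibular gland. Its range was 0.381 to 1.47 TPM in parotid (median 0.724), 0.104 to 0.766 TPM in pancreas (median 0.243) and 0.0309 to 0.192 TPM in liver (median 0.113). Sublingual and parotid libraries were all above the highest liver library for CHRM1, whereas the ranges of the 3 glands overlap. The submandibular library of animal 4 had 0.0274 TPM, and the other 5 had 1.55 to 4.41 TPM.

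CHRM1 was higher than in pancreas by 1.51 (SE 0.38) in sublingual gland on the log2 scale, in 5 of 6 animals, with an adjusted p of 0.00648 by limma. In submandibular gland the difference from pancreas was 1.27, in 5 of 6 animals, with an adjusted p of 0.0305. That submandibular call was 1.54 with an adjusted p of 0.00611 without both libraries of animal 4, but it was lost when all libraries of animal 1, 2, 3 or 6 were left out, with adjusted p of 0.0621, 0.0959, 0.244 and 0.107. The sublingual call was 1.33 with an adjusted p of 0.0085 without the 4 muscle-rich libraries and was lost without animal 3 (adjusted p 0.0519) or animal 5 (adjusted p 0.0557). Against liver CHRM1 was higher by 1.72 in sublingual gland (adjusted p 0.000769, limma) and by 1.47 in submandibular gland (adjusted p 0.0024). It was lower in parotid than in sublingual gland by a log2 fold change of -1.07 (adjusted p 0.027, lower in 4 of 6 animals), which became -0.72 (adjusted p 0.139) without the 4 muscle-rich libraries, -0.50 (adjusted p 0.378) after rescaling and -0.64 (adjusted p 0.177) without animal 5. In parotid CHRM1 exceeded liver in all 6 animals by 0.65 with an adjusted p of 0.143, and by 1.02 with an adjusted p of 0.0298 after rescaling. CHRM1 passed the filter through gland libraries alone, so its p-values against pancreas and liver follow in part from the filter.

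CHRM3, the muscarinic subtype best known for driving secretion, had 0.0202 TPM at the lowest, 2.34 TPM at the median and 2.62 TPM at the highest in submandibular gland. It had 0.563, 1.60 and 2.56 TPM in parotid, and 0.104, 1.09 and 5.73 TPM in sublingual gland. In pancreas it had 0.0382, 0.859 and 1.35 TPM and in liver 0.0235, 0.128 and 0.285 TPM. The lowest submandibular and the lowest pancreas value both belong to animal 4; the other 5 libraries lay at 1.96 to 2.62 TPM and 0.704 to 1.35 TPM. All parotid libraries were above all liver libraries, and the glands overlap with each other and with pancreas.

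CHRM3 was higher than in liver by a log2 fold change of 1.08 (SE 0.31) in parotid, with an adjusted p of 0.00516 by limma, 1.27 in submandibular gland (adjusted p 0.0017) and 1.06 in sublingual gland (adjusted p 0.0104). The direction held in 6, 5 and 5 of 6 animals. The sublingual call was lost without animal 3 (adjusted p 0.0858) or animal 5 (adjusted p 0.0931). Pancreas exceeded liver by 0.64 with an adjusted p of 0.127, and by 0.75 with an adjusted p of 0.0486 without both libraries of animal 4. Against pancreas the submandibular difference was 0.63 (adjusted p 0.227), and 1.10 (adjusted p 0.0176) after rescaling. Against sublingual gland it was 0.21 (adjusted p 0.633), and 0.95 (adjusted p 0.0447) after rescaling.

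In the sublingual gland the animals stood in the same order for both muscarinic receptors. From lowest to highest the order was animal 4, 1, 6, 2, 3 and 5, with CHRM1 at 0.233, 0.558, 1.93, 3.37, 4.85 and 15.9 TPM. CHRM3 in that order was 0.104, 0.282, 0.637, 1.54, 3.37 and 5.73 TPM. The median of the salivary acinar markers in that order was 147, 152, 1706, 414, 1802 and 6174 TPM, so by the median the same libraries were lowest and highest. The medians of animals 4 and 1 lay within the ranges of pancreas (93.9 to 187 TPM), liver (54.8 to 193 TPM) and parotid (127 to 240 TPM). At that level the median does not separate tissues with salivary acini from those without. The sum of these markers in that order was 4402, 36385, 348569, 316843, 243209 and 193848 TPM. By the sum animal 4 was again lowest, but animal 6 was highest and animal 5 was below animals 6, 2 and 3. Animal 5, highest in both receptors and in the marker median, also carried skeletal muscle markers. The part of cell composition in this spread was not tested. Without the sublingual library of animal 4, the counts of called receptors in the 4 pairs with sublingual gland were 3, 5, 3 and 2, as with it, and the sublingual difference from pancreas was 1.75 for CHRM1 and 1.33 for VIPR1.

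The alpha-1 adrenergic receptors ADRA1A and ADRA1B, which couple to Gq, were liver genes in these libraries. ADRA1A had 2.18 TPM at the lowest, 7.75 TPM at the median and 15.5 TPM at the highest in liver, and at most 0.760 TPM in any other library. ADRA1B had 5.73, 6.30 and 8.19 TPM in liver. Outside liver ADRA1B reached 3.86 TPM in submandibular gland (animal 4) and 1.37 and 1.64 TPM in pancreas (animals 3 and 4), and 5 of 6 submandibular libraries were at or below 0.200 TPM. No library of another tissue reached the lowest liver value of either gene. ADRA1B varied little between livers (6.53 ± 0.92 TPM, SD, n = 6) and ADRA1A more widely (7.67 ± 4.52 TPM).

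ADRA1A was lower than in liver by log2 fold changes of -2.85 in parotid (adjusted p 1.71e-10, limma), -2.71 in submandibular gland (adjusted p 5.07e-10), -2.75 in sublingual gland (adjusted p 4.23e-10) and -2.69 in pancreas (adjusted p 7.12e-10), each with an SE of 0.24. The values for ADRA1B were -2.67 (adjusted p 1.04e-09, limma), -2.37 (adjusted p 1.08e-08), -2.66 (adjusted p 1.37e-09) and -2.29 (adjusted p 2.68e-08), each with an SE of 0.25. All 6 animals had this direction in all 8 comparisons. Both genes passed the filter because of their liver levels, so these p-values follow in part from the filter. Without both libraries of animal 4 the ADRA1B values for submandibular gland and pancreas were -2.70 and -2.43. The mean ADRA1A level elsewhere was 0.877% of that in liver in parotid, 2.60% in submandibular gland, 1.92% in sublingual gland and 2.64% in pancreas. Over 9 hepatocyte markers the median of the same percentage was 0.594% to 0.848%, so low hepatocyte signal was present in all tissues and its part in the low ADRA1A levels was not tested.

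VIPR1, a receptor for vasoactive intestinal peptide that couples to Gs, was the 1 receptor of the 9 at or above 1 TPM in all 30 libraries. It had 14.8 TPM at the lowest, 16.5 TPM at the median and 21.8 TPM at the highest in liver. In sublingual gland it had 1.39, 8.30 and 15.9 TPM and in submandibular gland 2.47, 3.79 and 8.93 TPM. In pancreas it had 1.62, 2.32 and 5.81 TPM and in parotid 1.68, 2.34 and 3.37 TPM. Liver lay above all libraries of parotid, submandibular gland and pancreas, and overlapped with sublingual gland. The neighbours parotid, pancreas and submandibular gland overlap in this order of levels.

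VIPR1 was lower than in liver by -2.41 (SE 0.35) in parotid on the log2 scale, with an adjusted p of 2.8e-06 by limma, by -2.32 in pancreas (adjusted p 7.69e-06), by -1.81 in submandibular gland (adjusted p 0.000143) and by -1.21 in sublingual gland (adjusted p 0.00889). The sublingual difference from liver was -0.90 with an adjusted p of 0.0504 without animal 6. VIPR1 was higher in sublingual gland than in pancreas by 1.11 (adjusted p 0.0326, in 5 of 6 animals), but by 0.64 with an adjusted p of 0.358 without the 4 muscle-rich libraries, and the call was lost without animal 1, 2, 3 or 5 (adjusted p 0.193, 0.188, 0.0752 and 0.174). It was lower in parotid than in sublingual gland by -1.21 (adjusted p 0.00923), which was -0.34 (adjusted p 0.354) after rescaling, -0.79 (adjusted p 0.162) without the muscle-rich libraries, and lost without animal 1 (adjusted p 0.0602) or 5 (adjusted p 0.0859). Submandibular and sublingual gland differed by -0.61 without passing the test, and the sign turned to 0.13 after rescaling. Without both libraries of animal 4 that difference was -0.80 with an adjusted p of 0.0472. For submandibular gland against pancreas the value was 0.50 (adjusted p 0.401), and 0.93 (adjusted p 0.00822) after rescaling.

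VIPR2, the second receptor for the same peptide, was highest in the submandibular gland among the glands. It had 2.36, 3.49 and 5.07 TPM there at the lowest, median and highest, against 0.616, 1.04 and 2.59 TPM in parotid and 0.0812, 0.664 and 2.97 TPM in sublingual gland. In liver it had 0.0757, 0.447 and 2.52 TPM. In pancreas it had 0.508 and 1.03 TPM at the lowest and median and 13.2 TPM in animal 4, the highest value of this gene in any library. The other 5 pancreas libraries lay between 0.508 and 3.38 TPM. The submandibular range overlaps those of the 4 other tissues. Without animal 4 it runs from 2.65 to 5.07 TPM, clear of parotid (up to 1.35 TPM) and liver (up to 2.52 TPM).

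VIPR2 was higher in submandibular gland than in liver by a log2 fold change of 1.41 (SE 0.39), with an adjusted p of 0.00412 by limma, and than in sublingual gland by 1.43 (adjusted p 0.00912), in 6 of 6 animals each. The second call was lost without animal 2 (adjusted p 0.0533) or 3 (adjusted p 0.0541). Against pancreas the submandibular value was 0.64 (adjusted p 0.33). Without both libraries of animal 4 it was 1.18 with an adjusted p of 0.00818, and after rescaling 1.24 with an adjusted p of 0.0244. In the pancreas library of animal 4 smooth muscle markers summed to 4415 TPM and endothelial markers to 173 TPM, against 19.9 to 172 TPM and 6.59 to 29.1 TPM in the other 5. Their part in its VIPR2 level was not tested. Parotid was below submandibular gland by -1.08 with an adjusted p of 0.695, and by -1.32 with an adjusted p of 0.0339 without animal 4.

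SCTR, the secretin receptor that in pancreas serves bicarbonate secretion by duct cells, marked the pancreas. Its pancreas level was 6.39 TPM at the lowest, 75.3 TPM at the median and 191 TPM at the highest. In liver it was 1.04, 1.64 and 2.55 TPM, and in the parotid, submandibular and sublingual glands 0.282, 0.377 and 0.830 TPM, 0.277, 0.436 and 4.13 TPM, and 0.463, 0.650 and 1.45 TPM. All pancreas libraries lay above all others, the lowest being that of animal 4. The submandibular maximum of 4.13 TPM was also that of animal 4, and the other 5 submandibular libraries had at most 0.552 TPM.

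SCTR was lower than in pancreas by -5.32 (SE 0.47) in parotid on the log2 scale, with an adjusted p of 2.61e-08 by limma, by -5.05 in submandibular gland (adjusted p 9.71e-08) and by -5.04 in sublingual gland (adjusted p 2.57e-08). Pancreas exceeded liver by 4.40 (adjusted p 2.01e-08). Each direction held in 6 of 6 animals. Without both libraries of animal 4 these values were -5.91, -5.96, -5.63 and 5.00. The glands stood below liver by -0.91, -0.65 and -0.64 with adjusted p of 0.094, 0.249 and 0.334. The direction held in 6, 5 and 6 of 6 animals, and parotid and liver did not overlap. The spread behind these p-values is pooled over all 5 tissues, with the pancreas libraries included. Without the pancreas and submandibular libraries of animal 4 the gland values against liver became -0.91, -0.96 and -0.64. Their adjusted p were then 0.000525, 0.000515 and 0.0156 (limma). After rescaling of all libraries they were -0.35, -0.25 and -0.46 with adjusted p of 0.587, 0.698 and 0.468.

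SCTR varied widely between pancreas libraries. In animals 1 to 6 it was 78.6, 47.5, 191, 6.39, 72.1 and 96.4 TPM. The median of the islet markers in that order was 274, 209, 846, 10.7, 182 and 454 TPM. Animal 3 was highest and animal 4 lowest in both. The summed duct markers were 2050, 2016, 1473, 74.0, 2287 and 1784 TPM. The median of the pancreatic acinar markers was 33622, 33305, 13731, 359, 24950 and 33044 TPM. Duct and acinar markers were both lowest in animal 4, but next lowest in animal 3, the animal highest in SCTR. The part of islet, duct or acinar content was not tested. The mean SCTR level was 0.574% of the pancreas mean in parotid, 1.26% in submandibular gland, 0.978% in sublingual gland and 2.19% in liver, where the median of the same percentage over 9 pancreatic acinar markers was 0.862%, 0.661%, 0.915% and 1.13%. These percentages include animal 4. Without animal 4 the SCTR mean was 0.416 TPM in submandibular gland and 97.2 TPM in pancreas, against 1.04 and 82.0 TPM with it.

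CCKAR, the receptor through which cholecystokinin stimulates enzyme secretion in rodent pancreas, did not reach 1 TPM in any of the 30 libraries. Its highest level was 0.617 TPM in the pancreas of animal 1. The other 5 pancreas libraries had 0 to 0.104 TPM, and the median over the 6 was 0.0604 TPM. The highest levels elsewhere were 0.470 TPM in liver and 0.294, 0.168 and 0.150 TPM in sublingual, parotid and submandibular gland. The pancreas range overlaps those of all other tissues. The transcript models behind the table are not given in the sources used here, and their part in this low level, as in those of CHRM1 and CHRM3, was not tested. In a limma fit with no filter on low values, 0 of 10 tissue pairs passed for CCKAR, with 0.222 as the smallest adjusted p and 0 of 10 at an unadjusted p below 0.05.

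Receptors that bind the same transmitter were also set against each other inside each library. As 1 TPM was added to each level, library scaling cancels only in part, and most ratios of low levels are understated. CHRM3 exceeded CHRM1 in all 6 parotid libraries by a mean log2 ratio of 0.47 ± 0.47 (SD, n = 6, exact sign-flip p = 0.031, two-sided). The opposite held in all 6 sublingual libraries, at -0.63 ± 0.43 (exact p = 0.031). In pancreas CHRM3 was higher in 5 of 6 libraries, at 0.47 ± 0.30 (exact p = 0.0625), and in submandibular gland the ratio was -0.18 (exact p = 0.219). VIPR1 exceeded VIPR2 in all 6 libraries of liver, at 3.39 ± 0.56, of sublingual gland, at 2.19 ± 0.88, and of parotid, at 0.64 ± 0.34 (exact p = 0.031 each). In submandibular gland VIPR1 was higher in 2 of 6 libraries only (0.16 ± 0.83, exact p = 0.719), and in pancreas in 5 of 6 (0.29 ± 1.26, exact p = 0.62), where animal 4 had -2.20. ADRA1A and ADRA1B stood close to each other in liver (0.04 ± 0.73, exact p = 0.844). With 6 animals the smallest exact p is 0.031. It was reached in 6 of 15 ratios, the sixth being ADRA1A below ADRA1B in parotid (-0.14), and 0 of 15 passed after adjustment over the 15 (smallest adjusted p 0.0781). With 6 ratios at the smallest exact p, that adjusted value is fixed whatever their size, so it cannot tell large ratios from small ones. With 0.1 TPM added instead of 1, VIPR1 over VIPR2 was 4.69 in liver and 3.38 in sublingual gland. CHRM3 over CHRM1 was then 0.84 in parotid, -0.999 in sublingual gland and 1.10 in pancreas. ADRA1A over ADRA1B was -0.68 in parotid, and in liver it moved the other way, to 0.01.

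**Figure D4:**
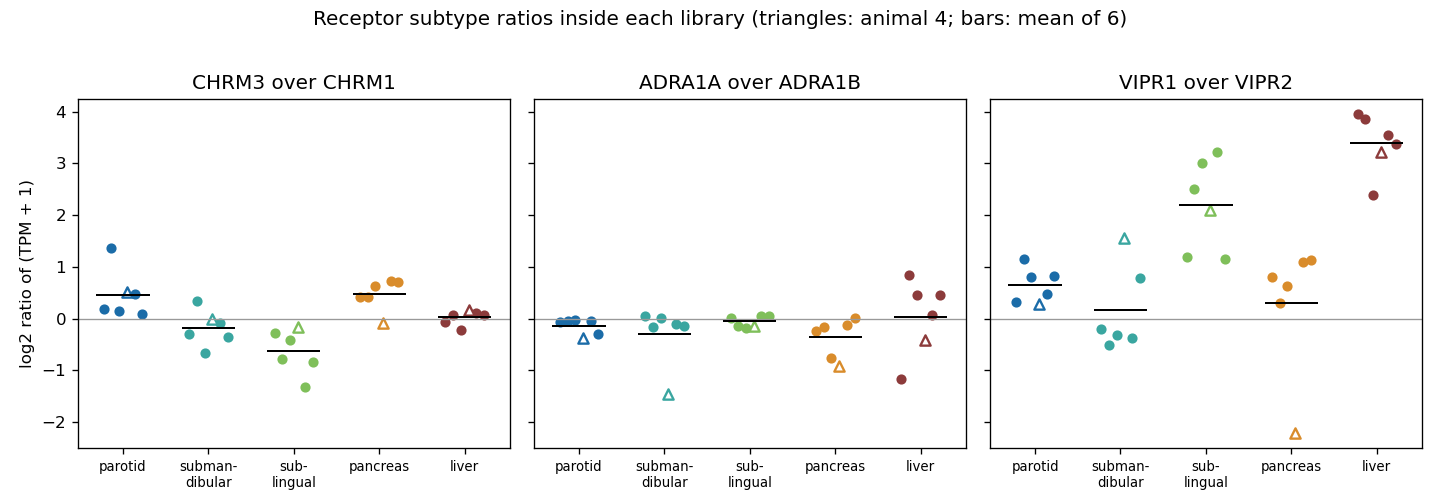
Log2 ratio of (TPM + 1) of 3 receptor pairs inside each library, by tissue; bars are means of 6 animals and open triangles animal 4. CHRM3 over CHRM1 lies above 0 in every parotid library and below 0 in every sublingual library.

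The signalling genes around the receptors were read from lists of their ligands, other receptors of the same transmitters, Gq and phospholipase C, Gs and cyclic AMP, and receptor desensitisation. Beside the list counts below, the general background against pancreas was 15.8% of all genes called in parotid (303 higher and 1838 lower), 9.71% in submandibular gland (305 higher and 1011 lower) and 13.9% in sublingual gland (1412 higher and 475 lower). Ligands were mostly too low to test. Of 9 genes for ligands and transmitter synthesis 3 passed the filter, TH, DBH and SCT, whereas VIP reached at most 2.22 TPM and CCK at most 1.99 TPM. VIP is released from parasympathetic nerves and CCK from cells of the gut.

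TH, which encodes tyrosine hydroxylase of catecholamine synthesis, was abundant in the glands. Parotid libraries held 48.7, 80.4 and 133 TPM at the lowest, median and highest, submandibular libraries 1.83, 91.6 and 130 TPM and sublingual libraries 8.57, 63.9 and 132 TPM. In pancreas it had 2.04, 2.49 and 12.7 TPM and in liver 2.52, 2.86 and 3.70 TPM. The lowest submandibular library was that of animal 4. TH exceeded pancreas by log2 fold changes of 4.32 in parotid (SE 0.64, adjusted p 2.32e-05, limma), 3.66 in submandibular gland (adjusted p 0.000239) and 3.39 in sublingual gland (adjusted p 0.00039). Without both libraries of animal 4 the submandibular value was 4.42. DBH, the enzyme that makes noradrenaline from dopamine, did not follow it: it was lower than in pancreas by -1.31 in sublingual gland (adjusted p 0.00238) and by -1.004 in submandibular gland (adjusted p 0.027), and was highest in liver, with a median of 6.07 TPM. The submandibular DBH call was lost after rescaling (-0.81, adjusted p 0.0855) and without animal 1, 2, 3 or 5 (adjusted p 0.115, 0.13, 0.149 and 0.123). SCT, which encodes secretin, had a median of 12.5 TPM in pancreas and was listed at 0 there in animal 4. It was lower by -3.02, -2.85 and -2.77 in the 3 glands (adjusted p 3.55e-05, 9.18e-05 and 8.35e-05, limma), and by -3.64, -3.67 and -3.39 without both libraries of animal 4.

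Of 17 other autonomic and secretagogue receptors 7 passed the filter. Against pancreas 2 rose and 2 fell in parotid, 1 fell in submandibular gland, and 2 rose and 1 fell in sublingual gland, while 3 fell in pancreas against liver, where 30.4% of all genes differed. The median of the 7 in the gland pairs was -0.42, -0.13 and 0.57, against -0.48, -0.33 and 0.23 over all genes. ADRA2C, an inhibitory alpha-2 adrenergic receptor, was lower than in pancreas by -1.41 in parotid (adjusted p 0.000389, limma), by -1.27 in submandibular gland (adjusted p 0.00153) and by -1.31 in sublingual gland (adjusted p 0.000738). P2RX4, an ATP-gated channel, was higher by 1.28 in parotid than in pancreas (adjusted p 0.011), a call lost without animal 1, 2 or 5 (adjusted p 0.0644, 0.0802 and 0.0542). P2RY2, a nucleotide receptor that couples to Gq, had 44.1 to 82.8 TPM in liver and 1.46 to 3.92 TPM in pancreas, a log2 fold change of -4.07 (adjusted p 4.18e-07, limma).

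All 8 genes of the Gq and phospholipase C list passed the filter. Against pancreas 1 rose and 1 fell in parotid, and 2 rose and 1 fell in submandibular and in sublingual gland, beside 15.8%, 9.71% and 13.9% of all genes, with list medians of -0.24, 0.03 and -0.16. PLCB4, a phospholipase C, was higher than in pancreas by 1.49, 1.82 and 1.37 in parotid, submandibular and sublingual gland (adjusted p 0.0119, 0.00318 and 0.0216, limma). Its parotid call was lost without animal 2 (adjusted p 0.0782), and its sublingual call in 7 alternatives, among them the removal of animal 1, 2, 3, 5 or 6 (adjusted p 0.0535, 0.155, 0.0809, 0.175 and 0.0596) and of the muscle-rich libraries (adjusted p 0.0834). The related PLCB2 was lower by -2.05, -1.81 and -1.33 (adjusted p 0.00108, 0.00475 and 0.0334, limma). Its submandibular call was lost without animal 3 or 5 (adjusted p 0.0841 and 0.0681). Its sublingual call was lost in 8 alternatives, among them the fit with no animal block (adjusted p 0.0529), the removal of the sublingual library of animal 4 (adjusted p 0.0613), of the muscle-rich libraries (adjusted p 0.0835), and of animal 2, 3, 5 or 6 (adjusted p 0.0632, 0.113, 0.169 and 0.15). GNA14, a G protein alpha subunit of the Gq family, was the 1 gene on any of these lists that differed between parotid and submandibular gland. It had 0.316, 0.789 and 2.72 TPM in parotid and 4.93, 7.47 and 8.91 TPM in submandibular gland, with no overlap, a difference of -2.04 (SE 0.38, adjusted p 0.00929, limma). It was also higher in submandibular gland than in sublingual gland by 2.27 (adjusted p 0.000237) and than in pancreas by 1.80 (adjusted p 0.00183), or 2.32 without both libraries of animal 4. The pancreas library of animal 4 had 15.7 TPM of GNA14, as with VIPR2 the highest of all. The parotid call was lost with the 12 libraries of the pair alone (adjusted p 0.161), without the muscle-rich libraries (adjusted p 0.0813) and without any of animals 1, 2, 3, 5 or 6 (adjusted p 0.0978, 0.0536, 0.0841, 0.0886 and 0.0672), with values between -2.17 and -1.92 over the animals left out.

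Of the Gs and cyclic AMP list 16 of 18 genes were tested. Against pancreas 2 fell in parotid, and 1 rose in submandibular and in sublingual gland, shares of 16 that are near or below the background of 15.8%, 9.71% and 13.9%. The list medians were -0.41, -0.19 and 0.19. ADCY8, a calcium-stimulated adenylyl cyclase, had 0.103, 7.15 and 12.3 TPM in sublingual gland and exceeded pancreas by 2.37 there (SE 0.34, adjusted p 9.93e-06, limma) and by 1.31 in submandibular gland (adjusted p 0.0111). The submandibular call was lost without animal 3, 5 or 6 (adjusted p 0.0783, 0.0641 and 0.0551). ADCY1, a related cyclase, was a liver gene at 11.5, 23.1 and 87.8 TPM, with a pancreas minus liver value of -4.28 (adjusted p 1.04e-13, limma). Its mean in the other tissues was 0.234 to 0.592 TPM. It thus passed the filter through liver, and this difference follows in part from the filter. PRKAR2B, a regulatory subunit of protein kinase A, had 2.78, 6.18 and 15.3 TPM in pancreas and was lower by -2.05 in parotid (adjusted p 0.00806). That call was lost without animal 3 (-1.91, adjusted p 0.0677).

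Of 14 genes of the desensitisation list tested against pancreas, limma called 5 lower in parotid, 4 lower in submandibular and 1 lower in sublingual gland. Beside these, 15.8%, 9.71% and 13.9% of all genes were called in either direction, and 9, 10 and 13 of the 14 did not pass. The list also holds the accessory proteins RAMP1, RAMP2 and RAMP3, and RAMP1 and RAMP3 were among the calls in parotid and submandibular gland. The number that rose was 0 in each of these pairs, also at an unadjusted p below 0.05. The medians of the 14 were -0.95, -0.63 and -0.24 against general medians of -0.48, -0.33 and 0.23, and after rescaling 5, 4 and 5 fell. RGS2, an inhibitor of Gq signalling, had 18.9 to 50.3 TPM in pancreas and was lower by -3.01, -2.68 and -2.18 in parotid, submandibular and sublingual gland (adjusted p 0.00014, 0.000715 and 0.00378, limma). RAMP1, an accessory protein of calcitonin-family receptors, was lower by -3.57 in parotid (adjusted p 7.46e-05) and in submandibular gland (adjusted p 8.82e-05).

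**Figure D5:**
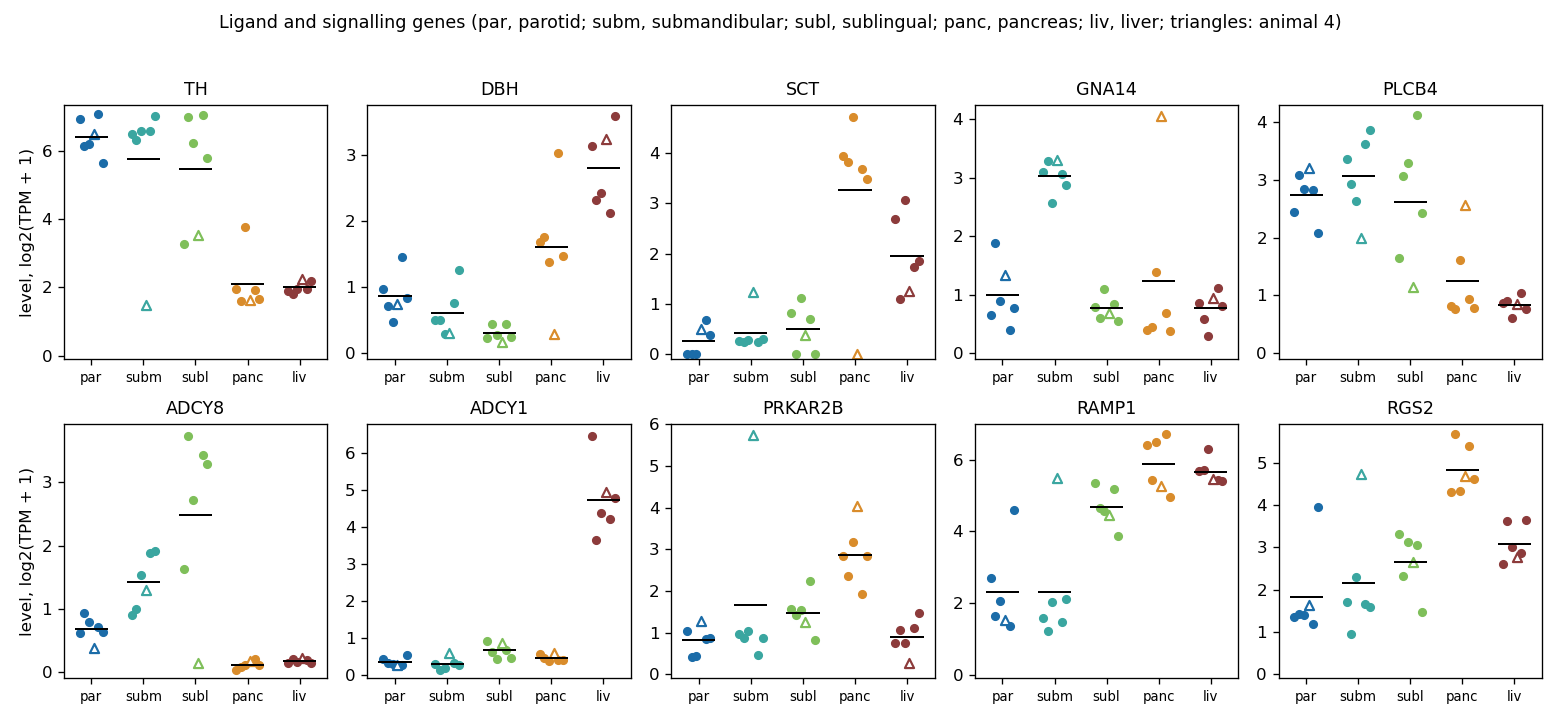
Level of 10 ligand and signalling genes in every library, as log2(TPM + 1) on the vertical axis, by tissue; points are libraries, open triangles animal 4 and bars the mean of 6. TH is high in the 3 glands, GNA14 in submandibular gland, ADCY8 in sublingual gland and ADCY1 in liver.

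Over the 30 libraries, the genes whose log2(TPM + 1) followed each receptor most closely were taken by Pearson's r, as a description, since libraries of a tissue share its composition. ADRB1 was followed by SLC37A2 (r = 0.95), a sugar phosphate transporter, and by SLC31A2 (0.90). SCTR was followed by GCG (0.98), the glucagon gene of islet alpha cells, RBPJL (0.98), a transcription factor of acinar cells, and KIF26A (0.97). ADRA1A was followed by ACMSD, LPA and CPS1 (0.98 each) and ADRA1B by SMOC1 (0.99) and COLEC11 (0.98), most of them known as liver genes. CHRM1 was followed by EPHA7 (0.92), CHI3L2 (0.90) and LMAN1L (0.88), and CHRM3 by TBC1D30 (0.90), SLC2A12 (0.89) and PRKACB (0.89), the last a catalytic subunit of protein kinase A. VIPR1 was followed by EBF4, HLCS and SLC9A8 (0.91 each). VIPR2 had the weakest partners, GNA14 (0.76), LY96 (0.73) and ALG9 (0.65). The pancreas library of animal 4, highest of the 30 in both VIPR2 and GNA14, is included, and r without it was not computed.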

How the data were processed

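RNA was sequenced from 5 tissues of 6 rhesus macaques, 30 libraries, as paired reads of 150 bases per the labels' protocols. The authors deposited a table of TPM values per gene. The submitters' processing notes name FastQC, MultiQC, cutadapt, HISAT2, kallisto, SAMtools, featureCounts and DESeq2 without versions or order, and the name of the table points to kallisto. The transcriptome used, and how gene values were formed from transcripts, is not given in the sources used here. TPM keep no sequencing depth, so no intervals from counting error are given. No column was left unused (0 columns), and no 2 libraries were identical (highest correlation 0.979).

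The table could have held counts. As it holds TPM, no count test was run. limma 3.58.1 in R 4.3.3 was applied to log2(TPM + 1) of the 13550 genes that reached 1 TPM in 6 or more libraries, in 1 fit of tissue and animal to all 30 libraries with a mean-variance trend, with two-sided p-values and Benjamini-Hochberg adjustment over all genes in each pair (threshold 0.05). The script was checked on simulated data. Animal entered as a block, since the animal identifiers in the labels recur in every tissue. Deviations from tissue means correlated at 0.161 on average within animals and -0.0186 between them. The 15 ratios inside libraries had exact sign-flip permutation tests. Alternatives were no block, no filter or 5 TPM, a pseudocount of 0.1, trimmed-mean scaling (trims of 30% and 5%), the 12 libraries of a pair alone, leaving out each animal, leaving out the pancreas and submandibular libraries of animal 4, and, chosen after seeing the data, leaving out the 4 gland libraries highest in skeletal muscle markers or the sublingual library of animal 4.

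The receptors, gene lists and alternatives were chosen with earlier results of these data known. All 9 receptors are named. From each gene list, named genes are among the 3 with the largest log2 fold change of those that passed in the pair described, and for each tested receptor the 3 genes with the highest Pearson's r, LOC identifiers left out, are given, except that a few genes the rule names are not reported here.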

Additional observations from a re-analysis of the deposited data

Results flagged for a closer look

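Within each receptor and tissue, 6 libraries were compared, and 6 of the 45 sets held a library far from the other 5 by Dixon's criterion at 95%, where chance gives about 2.25. Of these, 5 were the submandibular library of animal 4. It had 0.0202 TPM of CHRM3 against 1.96 to 2.62 TPM in the other animals, and 2.22 TPM of ADRB1 against 4.74 to 6.92 TPM. It had 0.760 TPM of ADRA1A against 0.0195 to 0.154 TPM, 3.86 TPM of ADRA1B against 0.0987 to 0.200 TPM, and 4.13 TPM of SCTR against 0.277 to 0.552 TPM. In this library the duct markers summed to 56.0 TPM against 996 to 2205 TPM in the others, and T lymphocyte markers to 75.6 TPM against 1.47 to 2.98 TPM. The sixth was the pancreas of animal 1, with 0.617 TPM of CCKAR against 0 to 0.104 TPM.

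In 90 comparisons of the sexes, 1 receptor and tissue pair had all females on one side and all males on the other. The mean difference of ADRB1 between parotid and submandibular gland, on log2(TPM + 1), was 1.04 in 4 females and -0.246 in 2 males. Among the females, animal 4 had 14.2 TPM in parotid and 2.22 TPM in its submandibular library low in salivary acinar markers. Animals 1, 2 and 3 had 7.05, 11.9 and 7.79 TPM in parotid against 5.93, 4.74 and 5.00 TPM. Of the males, animal 6 had the parotid library with 93088 TPM of skeletal muscle markers. The difference between the sexes was not tested.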

How the results depend on the processing

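For 46 receptor and tissue pair results, 669 values under alternatives held 610 with the same direction and side of the threshold, 30 that no longer passed, 28 that passed only there and 1 with the sign turned. For 107 signalling gene results, all called, 1373 of 1573 values stayed on that side, 198 no longer passed and 2 turned sign. Trimmed-mean scaling turned VIPR1 in submandibular minus sublingual gland to 0.13, PLCB3 in parotid minus sublingual gland to 0.00542 and P2RX4 in submandibular gland minus liver to 0.0231. It changed the receptors called from 3 to 6 in submandibular gland against pancreas and from 3 to 1 in parotid against sublingual gland. With the 12 libraries of a pair alone, 1 receptor was called in sublingual gland against pancreas and 1 in parotid against sublingual gland, the latter also without the 4 muscle-rich libraries (1). The 5 TPM filter keeps 4 of the 9 receptors, which left 3, 3 and 2 called in parotid, submandibular and sublingual gland against liver and 1 in submandibular against sublingual gland. Leaving out each animal gave 1 to 3 called in sublingual gland against pancreas (1 without animal 3 or 5), 0 to 1 in parotid against submandibular gland (1 without animal 4), 1 to 3 in parotid against sublingual gland (1 without animal 5) and 1 to 3 in submandibular against sublingual gland (1 without animal 2 or 3). Without the animal block the counts of called receptors were 2, 3, 3, 4, 5, 7, 5, 0, 3 and 2 in the order of the report, as with it, and no single receptor's call changed. Apart from the smaller set of genes under the 5 TPM filter, the cause was not tested. The subtype ratios with an exact p below 0.05 remained 6 of 15 with a pseudocount of 0.1. With 5 animals that test cannot reach 0.05, so ratios without an animal have no test. Most receptors lie under 10 TPM, where 1 library moves a mean, and the depth behind these values is unknown.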
